A study of Mus musculus with 8 samples.

Results

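The genes of the centrosome were examined in muscle satellite cells (SCs), the resident stem cells of the tissue, sorted from control and exercise mice. They were the protein-coding genes whose symbol is Cep followed by a number, together with Plk4, Cenpj, Stil, Sass6, Pcnt, Pcm1, Cntrl and the centrin, gamma-tubulin and gamma-tubulin complex genes, 54 of the 52636 genes in the table. Cep152 was chosen by its measured values, since it was among the largest rises from control to exercise, and its difference is therefore a description with no test. The other 53 genes were taken by name, and the question was whether Cep152 rose alone. Male C57B/6J mice, 10 weeks old in both groups, stayed sedentary (4 control libraries) or ran on a treadmill for 4 weeks, 4 days per week, 30 min per day at 12 m per min (4 exercise libraries). Each library held the RNA of about 800 SCs that were sorted as negative for CD45, Sca1, CD11b and CD31 and positive for CD34 and α7-integrin, and was made with a kit for single cells. The labels do not tie a library to a mouse, although a legend of the study counts the replicates of these data as mice, so p-values measure the spread between these libraries, which may be technical.

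The centrosome is a pair of centrioles within a cloud of protein that nucleates microtubules. Once per cell cycle the kinase Plk4 starts a new centriole beside each old one, on a cartwheel built of Sass6 and Stil. Cep152 and Cep63 form a ring around the old centriole, and this ring, together with Cep192, recruits Plk4. Most SCs in resting muscle are quiescent, and they duplicate their centrioles when they enter the cell cycle.

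Levels are FPKM, fragments relative to gene length and to a library size, which allows comparison between genes. Each FPKM value was a whole multiple of the worth of 1 read, so the reads behind every value were recovered. The control libraries held 2339966 to 3013354 reads and the exercise libraries 1011737 to 1200221, on 5169 to 7307 and 2348 to 3289 genes. The library size inside the values was not the read total. In exercise 4 it was 0.249 of that total, and in the other libraries 0.924 to 1.58 of it. An FPKM in exercise 4 therefore stands for fewer reads, and reads are given beside levels. Some libraries were alike or stood apart. Chi-square over degrees of freedom, across genes, was 2.88 between exercise 1 and 2, against 56.4 to 412 in the other pairs within a group, so that these libraries are near copies that still differ beyond sampling noise. Control 4 and exercise 3 held genes of other libraries of their group, at shares given here as medians without their spread. For genes seen in control 1 but not control 3, the share of reads in control 4 was a median 0.281 of that in control 1 (345 genes), and for genes seen in control 3 but not control 1 it was 0.714 of that in control 3 (658 genes). In exercise 3 the ratio was 0.299 for 139 genes with at least 50 reads in exercise 1 and none in exercise 4. It was 0.677 for 142 genes with at least 50 reads in exercise 4 and none in exercise 1. These 4 libraries were therefore not shown to be independent samples, and SDs and p-values with n = 4 are read with this limit. Mitochondrial transcripts took 50.2% and 68.7% of the reads of exercise 3 and 4 against 2.09% to 15.3% in the other libraries. Of 12 SC markers 8 had reads, 3 of them in exercise libraries, with summed levels of 34.2 to 51.5 FPKM in control and 31.9 to 93.9 FPKM in exercise libraries, while Pax7, Itga7, Cdh15 and Calcr had none in any library, although the sort used the protein that Itga7 encodes. All 8 markers of muscle fibres had reads, with summed levels of 31275 to 52879 FPKM in control and 19124 to 52680 in exercise libraries. All 5 fibro-adipogenic markers had reads (1373 to 2083 FPKM in control and 1433 to 2141 in exercise libraries), as did 2 of 6 endothelial markers (0.0925 to 2994 and 4.42 to 26.2 FPKM) and 0 of 6 haematopoietic ones, and the part of these cells in the results was not tested. In such bulk libraries, fewer cells of a type and less RNA per cell cannot be told apart.

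The promoters of 3 of the genes are shown here because these genes carry the results below. Cep152 and Cep63 had reads in every exercise library, and Cetn2 was the member that passed the test. Each runs from 250 bases before to 50 bases after the RefSeq start of the gene (GRCm38.p6), all 3 on the minus strand. Capitals mark CCAAT as well as the GC box GGGCGG and the E-box CACGTG, on either strand, so that ATTGG and CCGCCC are CCAAT and GGGCGG read from the other strand. The motif TTTGAA was also searched and was in none of the 3. The regions are chr2:125625064-125625363 for Cep152, chr9:102626075-102626374 for Cep63 and chrX:72918295-72918594 for Cetn2.
Cep152: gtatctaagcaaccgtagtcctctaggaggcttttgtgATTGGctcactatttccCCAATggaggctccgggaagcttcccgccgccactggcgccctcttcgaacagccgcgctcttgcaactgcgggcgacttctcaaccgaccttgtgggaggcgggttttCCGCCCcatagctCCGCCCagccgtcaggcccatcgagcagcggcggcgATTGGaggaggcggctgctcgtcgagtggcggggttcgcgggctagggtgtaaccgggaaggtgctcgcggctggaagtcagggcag
Cep63: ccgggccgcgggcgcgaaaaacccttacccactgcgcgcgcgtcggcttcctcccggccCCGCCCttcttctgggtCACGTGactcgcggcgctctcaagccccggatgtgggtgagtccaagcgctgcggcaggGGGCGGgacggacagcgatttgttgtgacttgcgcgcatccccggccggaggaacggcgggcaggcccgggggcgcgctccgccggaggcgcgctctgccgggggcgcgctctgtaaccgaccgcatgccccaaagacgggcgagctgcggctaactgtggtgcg
Cetn2: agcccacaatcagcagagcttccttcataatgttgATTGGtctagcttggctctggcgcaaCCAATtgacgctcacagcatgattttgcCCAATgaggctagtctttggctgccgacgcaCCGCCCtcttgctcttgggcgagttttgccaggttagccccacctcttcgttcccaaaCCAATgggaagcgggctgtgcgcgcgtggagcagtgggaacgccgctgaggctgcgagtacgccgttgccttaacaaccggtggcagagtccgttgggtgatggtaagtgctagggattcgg

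The Cep152 promoter held 3 matches to CCAAT and 2 to GGGCGG, the Cep63 promoter 2 to GGGCGG and 1 to CACGTG, and the Cetn2 promoter 4 to CCAAT and 1 to GGGCGG. Of 32851 mouse promoters of this length, CCAAT was in 37.4%, GGGCGG in 35.7%, CACGTG in 7.15% and TTTGAA in 17.9%. Thus Cep152 and Cep63 shared the GC box, which Cetn2 held too, and no other motif searched. Their GC contents were 64.3% and 73.0%, against 57.3% in Cetn2 and a median of 52.7% over all promoters. The RefSeq start of Cep63 lay 410 bases inside the end of the gene in the deposited table. A promoter was matched for 44 of the 54 genes.

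Reads were found for 18 of the 54 genes (33.3%), close to the 35.5% of the 21973 other protein-coding genes. Of these 18, 11 had reads in control libraries alone, 3 in exercise libraries alone (Cep63, Cep112 and Tubgcp3), and 4 in both (Cep152, Cetn2, Pcm1 and Cep85). Of the other protein-coding genes with reads, 52.5% were seen in control alone, 6.53% in exercise alone and 41.0% in both. The other 53 genes together drew 2630, 535, 478 and 1352 reads in control 1 to 4 but only 57, 64, 21 and 3 in exercise 1 to 4. In the exercise libraries nearly all centrosomal reads thus came from Cep152.

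**Figure D1:**
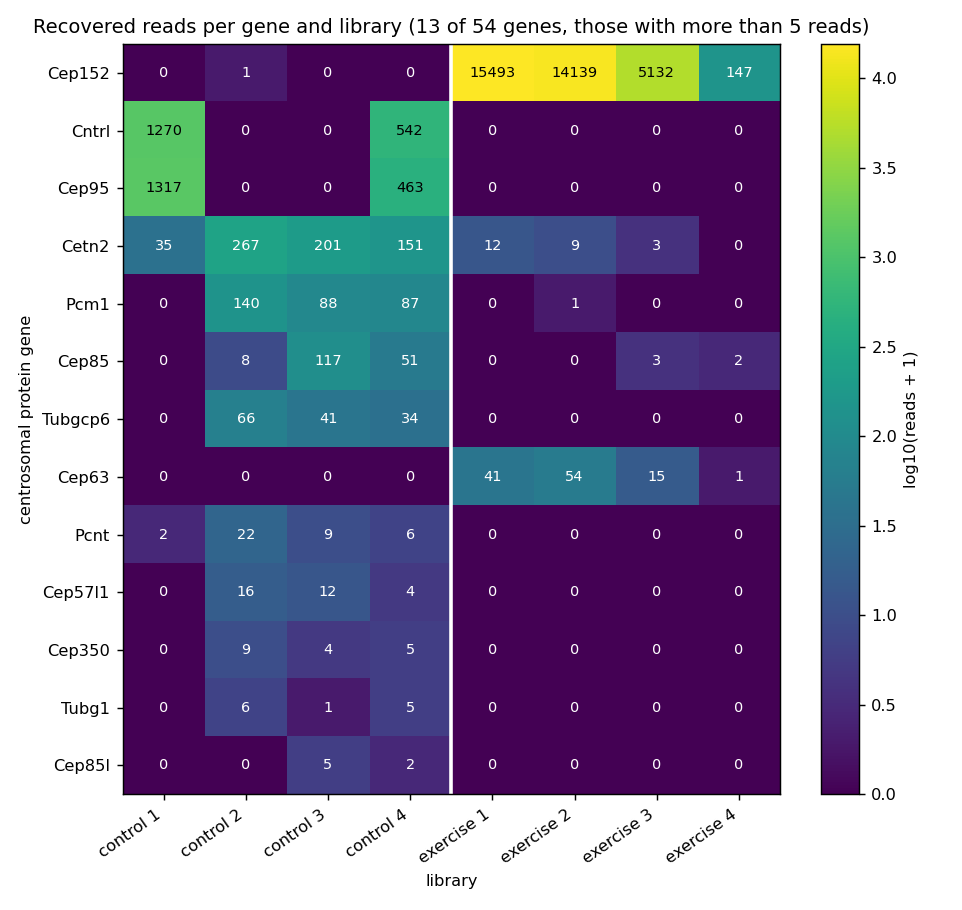
Recovered reads (printed in each cell, colour on a log10 scale of reads + 1) of the 13 centrosomal protein genes with more than 5 reads in all, by gene and library, control on the left and exercise on the right of the white line. Cep152 and Cep63 fill the 4 exercise libraries, with 147 to 15493 and 1 to 54 reads, while most other genes have reads in control libraries only.

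Cep152, the scaffold of the ring that binds Plk4, lies on the minus strand at chr2:125563088-125625113 (mm10), with 28 exons in its single annotated transcript. Its level was 0, 0.0566, 0 and 0 FPKM in control 1 to 4 and 1606, 1536, 802 and 88.4 FPKM in exercise 1 to 4. The value in control 2 is 1 read, and the exercise values are 15493, 14139, 5132 and 147 reads. The groups did not overlap, and exercise 4 was far below the other exercise libraries but still far above every control library. The control mean was 0.0142 ± 0.0283 FPKM (SD, n = 4), and that of the exercise libraries was 1008 ± 713 FPKM (SD, n = 4).

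The mean of log2(FPKM + 1) of Cep152 was higher by 9.32 in exercise libraries, and it ranked 3 of the 4328 genes tested by this measure. It took 1.46% of the reads of exercise 1 (95% exact binomial interval 1.44 to 1.49), 1.40% of exercise 2 (1.37 to 1.42), 0.428% of exercise 3 (0.416 to 0.439) and 0.0127% of exercise 4 (0.0107 to 0.0150). A control library without a read allows up to 0.000128% (3 reads in control 1). These limits cover counting error only, because amplified reads are not independent molecules. Pooled, 34911 of 4425867 exercise reads and 1 of 10808426 control reads were from Cep152, a ratio of 85256 with a counting interval of 15301 to 3367539. Exercise 4, the lowest exercise library, against control 2 gave a ratio of 339 (59.9 to 13479).

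By FPKM, Cep152 ranked 30 in exercise 1, 34 in exercise 2, 66 in exercise 3 and 439 in exercise 4, among 2348 to 3289 genes with reads. Within the exercise group its share of reads followed the library. The share in exercise 2 was 0.955 of that in exercise 1, and in exercise 4 it was 0.00869 of it. In exercise 3 it was 0.292 of that in exercise 1. This is near the median of 0.299 given above for genes of exercise 1 absent from exercise 4, each with 50 reads or more in exercise 1. Cep152 was lowest in exercise 3 and 4, the libraries richest in mitochondrial reads, and the part of this in its level was not tested. With exercise 1 and 2 averaged as 1 sample the log2 difference was 8.90, and after dropping control 4 and exercise 3 as well it was 8.52. Only 2 of the 4328 genes tested had at most 1 read in each control library and at least 100 in each exercise library, Cep152 and Fam53c, a pattern chosen after the values were seen.

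The 5 genes whose log2(FPKM + 1) over the 8 libraries was nearest to that of Cep152 were Gm23582, Slc37a3, Atp5sl, Myd88 and Asap3. They differed from it by a mean of 0.25 to 0.57 on the log2 scale. Slc37a3, of the sugar phosphate exchanger family, was listed at 0 in each control library and at 974, 956, 544 and 42.3 FPKM in exercise 1 to 4. Myd88, the adaptor of Toll-like receptors, had 0.0995 to 3.72 FPKM in control and 1321, 1347, 722 and 106 in exercise 1 to 4. In all 5, as in Cep152, exercise 1 and 2 were highest and exercise 4 was the lowest of the exercise libraries. This shared order follows from picking them by nearness over the same libraries and is no finding of its own.

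Of 7 genes within 250 kb of its ends 4 had reads, and of these Fbn1 alone had reads in exercise libraries. Fbn1, which encodes the microfibril protein fibrillin, had 76, 0, 2 and 19 reads in control 1 to 4 and 191, 171, 72 and 0 in exercise 1 to 4. In reads it was thus higher in exercise 1 and 2 than in any control library. Exercise 3 had 72 of 1200221 reads against 76 of 2339966 in control 1, which is a larger share. The share of Fbn1 in exercise 3 was 0.332 of that in exercise 1, but unlike Cep152 it had reads in 3 control libraries and none in exercise 4. Eid1 had 1, 29, 34 and 28 reads in control and none in exercise libraries, Cops2 had 9, 0, 8 and 9 and none, and Galk2 0, 1, 1 and 1 and none. No read fell on Shc4, whose end lies nearest to the start of Cep152. No annotated gene overlaps Cep152 with reads of its own, and none of the 5719 windows of 50 bases in its transcript occurs in a transcript of another gene.

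Cep63, the partner of Cep152 in the ring, was the other member with reads in every exercise library. It lies on the minus strand at chr9:102584588-102626534. Its level was 0 FPKM in each control library and 2.55, 3.53, 1.41 and 0.362 FPKM in exercise 1 to 4, from 41, 54, 15 and 1 reads. The groups did not overlap, but the value in exercise 4 is a single read, below the 1.08 FPKM that 3 reads would give there. With control libraries set to 3 reads each, the mean of Cep63 was at least 19.8-fold higher in exercise libraries, and at least 14.5-fold without its highest library.

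The mean of Cep63 over the 8 libraries was 0.981 FPKM, just under the minimum of 1 FPKM for testing. The difference was 1.43 on the log2(FPKM + 1) scale, and the exact permutation test (two-sided) gave p = 0.0286, its lowest possible value with 4 libraries in each group. Cep63 was taken up for this test because it had at least 20 reads in a library, which it met through exercise libraries alone, so the exact p values given for it are a description and no support. In the limma fit over all 9029 genes with reads, Cep63 had an adjusted p of 0.0816 and was not called. Without exercise 4 or without control 1 its mean reached the minimum, through its exercise values alone, and its limma adjusted p was then 0.0113 and 0.0341, which is no support because it entered by the group in which it is high. With another control library left out the limma adjusted p was 0.0724 to 0.132. With exercise 1 and 2 averaged the difference was 1.24 (exact permutation p = 0.0286), and after dropping control 4 and exercise 3 as well it was 1.23 (exact permutation p = 0.1, the lowest that 3 libraries against 2 can give). A read in every exercise library and in no control library was seen for 90 of 9029 genes, 0.997%.

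Cep63 was far less abundant than Cep152, with 41 reads against 15493 in exercise 1 and 1 against 147 in exercise 4. Its share of reads in exercise 3 was 0.323 of that in exercise 1, near the 0.292 of Cep152. Cep63 overlaps Anapc13 on the opposite strand, and the sources used here do not say whether counting used strand. Anapc13, a subunit of the anaphase-promoting complex, had 64, 1, 3 and 28 reads in control and none in exercise libraries, so its reads moved the other way. Of the windows of 50 bases in the Cep63 transcripts, 1.79% occur in transcripts of 10 other genes.

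**Figure D2:**
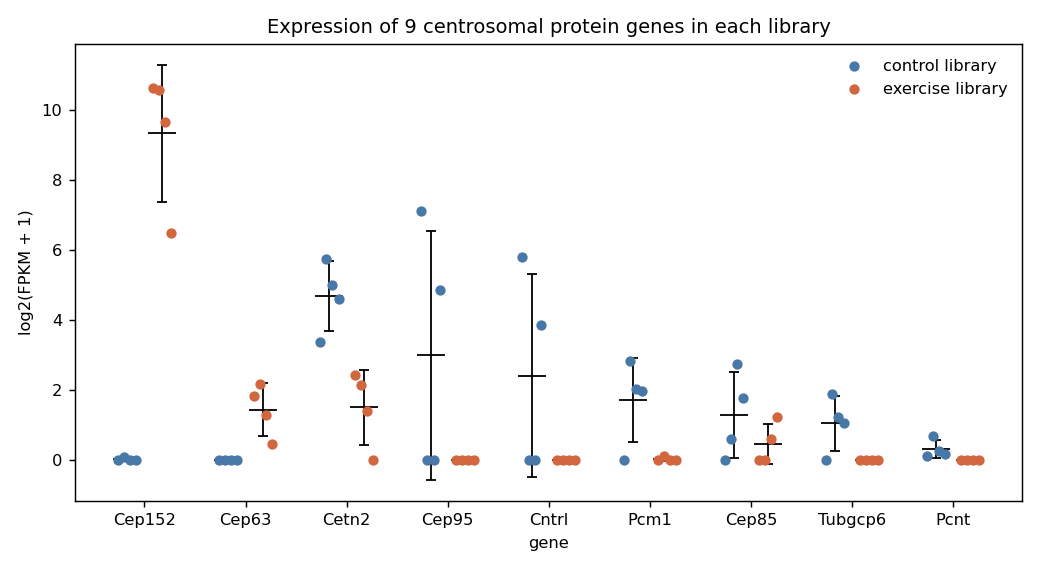
Levels of 9 centrosomal protein genes as log2(FPKM + 1), with a point for each library (control left, exercise right of each gene) and a black line and bars for the mean and SD of 4 libraries. Cep152 stands far above its control libraries, Cep63 is higher at a low level, and the other genes are lower or at 0 in most exercise libraries.

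The other 3 genes of the ring had no read in exercise libraries. Cep57l1, a relative of Cep57, had 0, 16, 12 and 4 reads in control 1 to 4 and none in exercise libraries. Cep192, which recruits Plk4 together with Cep152, and Cep57, which joins Cep63 in the ring, had no read in any library. For Cep192, 3 reads would have been 0.0603 FPKM in control 4 and 0.834 FPKM in exercise 4, and for Cep57 0.180 and 2.49 FPKM, so a difference below these limits was not detectable.

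The genes that build the new centriole were almost without reads. Of 8 such genes, Cep97, which caps the centriole, had 1 read, in control 2. Plk4, the kinase that binds Cep152, had none in any library, nor did Sass6 and Stil, which form the cartwheel, or Cenpj, Cep135, Cep120 and Cep295, which elongate or stabilise the centriole wall. A level of Plk4 of up to 0.110 FPKM in control 4 and 1.52 FPKM in exercise 4 was not detectable. The corresponding limits were 0.123 and 1.70 FPKM for Sass6, 0.130 and 1.80 for Stil, and 0.154 and 2.14 for Cenpj. Of 21 genes of proliferating cells 8 had reads, with summed levels of 1.45 to 14.0 FPKM in control and 0 to 6.90 FPKM in exercise libraries.

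Of the 53 genes besides Cep152, 5 reached a mean of 1 FPKM and were tested in the limma fit over 4328 genes. The call was made at an adjusted p under 0.05. Of the 5, Cetn2 alone had a mean above 1 FPKM in both groups. Cntrl, Cep95, Pcm1 and Cep85 reached the minimum through control libraries alone, which fixed their direction, so the counts and the median of the 5 are a description and no support for a fall. Of the 5, 1 was called, and it was lower, against 35.6% of all genes tested, while 0 were called higher against 8.78% of all genes and 1 was called lower against 26.8%. At an unadjusted p under 0.05 there were 2 of the 5 (Cetn2 and Pcm1), both lower, against 49.6% of all genes tested. The groups did not overlap for 1 of the 5 with exercise lower (Cetn2), against 24.0% of all genes, and for 0 with exercise higher, against 7.62%, where Cep152 is counted among all genes. The median log2 difference of the 5 was -2.41, against -1.42 over all genes tested, so that all differences are read against a scale that lies below 0. Over all genes 380 were called higher and 1161 lower, and under quantile normalization 566 and 375, with a median of -0.44.

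**Figure D3:**
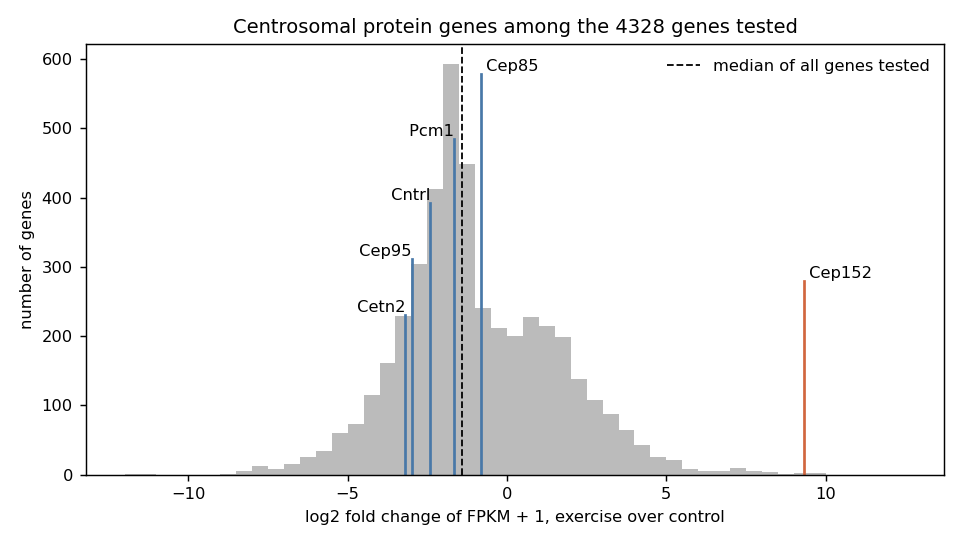
Number of genes by log2 fold change of FPKM + 1, exercise over control, for the 4328 genes tested (grey), with the median as a dashed line at -1.42 and the 6 centrosomal protein genes tested as coloured lines whose heights carry no value. Cep152 lies at 9.32 in the upper tail, and the 5 other genes lie between -3.19 and -0.82.

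Cetn2, a centrin that binds calcium and lies inside centrioles, fell in exercise libraries. Its gene is at chrX:72913532-72918411 on the minus strand. Its level was 9.27, 53.0, 31.3 and 23.0 FPKM in control 1 to 4 and 4.36, 3.43, 1.64 and 0 FPKM in exercise 1 to 4. These stand for 35, 267, 201 and 151 reads and for 12, 9, 3 and 0 reads. Every exercise library was below every control library, the nearest being exercise 1 and control 1. The log2 difference was -3.19 (SE 0.82, limma adjusted p = 0.0193), with an exact permutation p of 0.0286. Exercise 4, with no read, allows up to 6.32 FPKM at 3 reads, which is still below control 1.

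The call for Cetn2 did not hold under quantile normalization (-2.04, limma adjusted p = 0.133) or without control 3, control 4 or exercise 3, where the difference was -3.07, -3.22 and -3.16 (limma adjusted p = 0.0534, 0.0565 and 0.0661). Under quantile normalization its exact permutation p was 0.0857. With exercise 1 and 2 averaged it was -3.45 (limma adjusted p = 0.0431), and after dropping control 4 and exercise 3 as well it was -3.56 (limma adjusted p = 0.471). Cetn1, Cetn3 and Cetn4, the other centrins, had no read in any library.

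The material around the centrioles was represented by Pcm1 and Pcnt. Pcm1, the scaffold of the centriolar satellites, is at chr8:41239752-41332344 on the plus strand. It had 0, 6.13, 3.02 and 2.93 FPKM in control 1 to 4 and 0, 0.0840, 0 and 0 FPKM in exercise 1 to 4, the latter value from 1 read. Control 1 was as low as the exercise libraries, and the other control libraries were above them all. The log2 difference was -1.67 (SE 0.62, limma adjusted p = 0.0571), and it was not called. Without control 1, the control library at 0, it was -2.24 (limma adjusted p = 0.00107), which is no support, since Pcm1 entered the fit by the group in which it is high.

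Pcnt, pericentrin, the large scaffold of the pericentriolar material (chr10:76351263-76442786, minus strand), had 0.0717, 0.591, 0.190 and 0.124 FPKM in control 1 to 4 and none in exercise libraries. Its 2, 22, 9 and 6 reads gave an exact permutation p of 0.0286 on the log2 scale, a description only, since Pcnt met the minimum of 20 reads through control 2 alone. However, 3 reads would be 0.148 FPKM in exercise 1 and 0.856 FPKM in exercise 4, so that no control level of Pcnt was detectable in exercise 4, while in exercise 1 the levels of control 2 and 3 were and those of control 1 and 4 were not. No fold is given. Cep131, Cep72 and Cep290, which belong to the satellites and to the base of the cilium, had no read.

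Cntrl, centriolin, was the only gene of the 6 of the centriole appendages with reads (Cep83, Cep89, Cep164, Cep128 and Cep170 had none), and lies on the plus strand at chr2:35109492-35178822. Its level was 54.3, 0, 0 and 13.3 FPKM in control 1 to 4 and 0 in each exercise library. Cep95, which encodes another centrosomal protein (chr11:106789252-106819930, plus strand), had 137, 0, 0 and 27.7 FPKM in control 1 to 4 and 0 in each exercise library. Both genes were thus high in control 1, lower in control 4 and absent from control 2 and 3, and the groups overlapped at 0. The log2 differences were -2.41 (SE 1.22, limma adjusted p = 0.135) for Cntrl and -2.99 (SE 1.48, limma adjusted p = 0.129) for Cep95, and neither passed the test.

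Control 4 held 0.358 of the share of reads that control 1 gave to Cntrl and 0.295 of that for Cep95. These are near the median of 0.281 given above for genes of control 1 absent from control 3. Pcm1, Tubgcp6 and Cep85 had no read in control 1. Their shares in control 4 were 1.07, 0.896 and 0.471 of those in control 3, where the median above was 0.714. With exercise libraries set to 3 reads each, both means were at least 41.1-fold higher in control libraries, but at least 10.8-fold for Cntrl and 9.23-fold for Cep95 without control 1. The pattern of reads in control 1 and none in control 2 and 3 was seen for Cep170b too (3 reads in control 1), and for 14.8% of all genes with reads. The opposite pattern, reads in control 2, 3 or 4 and none in control 1, was seen in 8 members besides Cep152, and in 35.9% of all genes with reads.

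Of the 7 gamma-tubulin and gamma-tubulin complex genes, which form the ring that seeds microtubules, 3 had reads. Tubgcp6 (chr15:89098357-89123087, minus strand) had 0, 2.71, 1.32 and 1.07 FPKM in control 1 to 4, from 0, 66, 41 and 34 reads, and none in exercise libraries. Its exact permutation p was 0.143, again for a gene taken up through its control reads alone, and it was at least 2.42-fold higher in control libraries with exercise libraries set to 3 reads, or 1.51-fold without its highest library. Of its transcript windows 8.01% occur in transcripts of other genes, and the length in the table, 7965 bases, is not that of the annotation used here, 11464 bases. Tubg1, gamma-tubulin itself, had 0, 6, 1 and 5 reads in control 1 to 4 and none in exercise libraries. Tubgcp3 had 1 read, in exercise 1, and Tubg2, Tubgcp2, Tubgcp4 and Tubgcp5 had none.

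Cep85, which acts on the kinase Nek2 at the centrosome, was the remaining gene tested (chr4:134129858-134187112, minus strand). Its level was 0, 0.496, 5.69 and 2.43 FPKM in control 1 to 4 and 0, 0, 0.514 and 1.32 FPKM in exercise 1 to 4, the last from 2 reads. The groups overlapped. Its log2 difference of -0.82 (SE 0.67, limma adjusted p = 0.318) did not pass the test and turned to 0.23 under quantile normalization. Of its transcript windows, 8.26% occur in transcripts of other genes. The rest of the Cep genes with reads had few of them, with 0, 9, 4 and 5 in control 1 to 4 for Cep350, 0, 0, 5 and 2 for Cep85l, and 3 in exercise 1 for Cep112. The remaining 12, Cep19, Cep41, Cep44, Cep55, Cep68, Cep70, Cep76, Cep78, Cep126, Cep162, Cep250 and Cep295nl, had no read in any library.

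The number of the 54 genes with at least 1 read was 6, 10, 9 and 12 in control 1 to 4 and 5, 4, 4 and 3 in exercise 1 to 4. Every exercise library was below every control library. As a share of the 54 this was 11.1% to 22.2% in control and 5.56% to 9.26% in exercise libraries, while 20.5% to 29.2% and 9.17% to 13.1% of the other protein-coding genes had a read. Thinned to 1011737 reads, the depth of the shallowest library, the counts were 6, 8, 8 and 12 in control and unchanged in the exercise libraries. Each thinning is a single random draw per library, and counts of genes with few reads can differ between draws. Equal totals are not equal depth for nuclear genes, given the mitochondrial share of exercise 3 and 4. With nuclear reads alone thinned to 362038, an alternative chosen after seeing the data, the counts were 4, 8, 6 and 10 in control 1 to 4. They were 4, 3, 4 and 3 in exercise 1 to 4, so the groups met at 4 in this draw. Of the other protein-coding genes, 16.0% to 22.5% in control and 9.11% to 12.3% in exercise libraries then had a read.

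**Figure D4:**
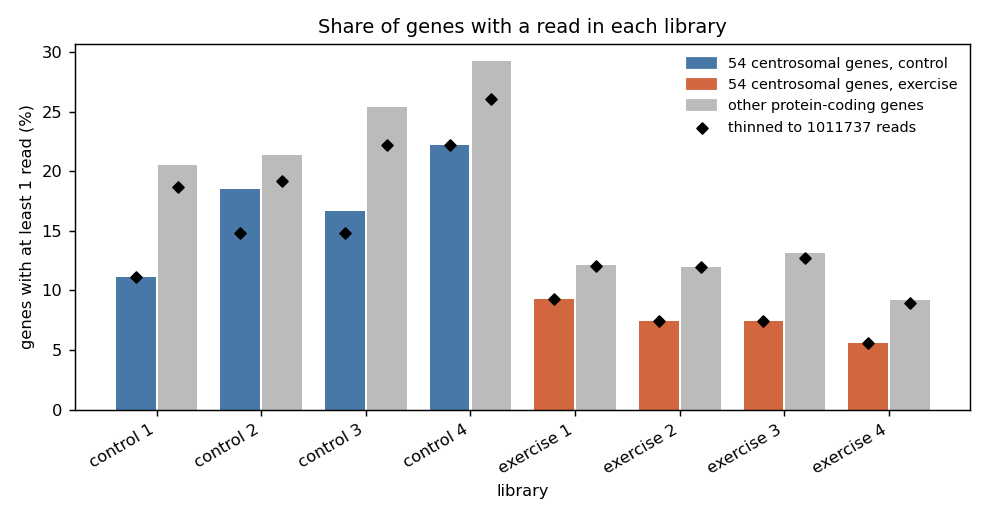
Percent of genes with at least 1 read in each library, for the 54 centrosomal protein genes (blue in control, orange in exercise libraries) and for the other protein-coding genes (grey), with black diamonds for the values in a single random draw of 1011737 reads per library. The centrosomal share is 11.1% to 22.2% in control and 5.56% to 9.26% in exercise libraries, below the grey bar in each library.

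A wider list of 61 symbols of centrosome and spindle pole genes outside the 54, with Crocc listed also as Rootletin, was read from the same fit. Of these 60 were in the table, 24 had reads, 7 were tested, and 4 were called, 3 lower and 1 higher in exercise libraries. Over all genes tested, 35.6% were called, 26.8% lower and 8.78% higher. With exercise 1 and 2 averaged, Fopnl alone of the 4 was called (log2 difference -8.21, limma adjusted p = 0.00320). With control 4 and exercise 3 also dropped its log2 difference was -7.89 (limma adjusted p = 0.175). Fopnl, also known as Cep20, which binds at centriolar satellites, had the largest difference, from 89.9, 981, 655 and 495 FPKM in control 1 to 4 to 0.816, 2.57, 0 and 0 in exercise 1 to 4 (log2 difference -8.01, limma adjusted p = 0.000653). Pafah1b1 (Lis1), a partner of the motor dynein, had 0.0906, 23.0, 12.3 and 7.28 FPKM in control 1 to 4 and 0 in each exercise library (-2.87, limma adjusted p = 0.0373). Ckap5, a microtubule polymerase, had 0, 13.6, 5.39 and 4.11 FPKM in control 1 to 4 and 0 in each exercise library (-2.22, limma adjusted p = 0.0490). Its groups overlapped at 0 (exact permutation p = 0.143), and it was called in 6 of 21 alternatives, against 9 of 21 for Pafah1b1 and 20 of 21 for Fopnl. All 3 of these genes reached the minimum for testing through control libraries alone, with exercise means of 0 for Ckap5 and Pafah1b1 and 0.846 FPKM for Fopnl, which fixed their direction, so their calls are a description.

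Mzt2, a small protein bound to the gamma-tubulin ring, went from 0, 5.55, 6.01 and 4.47 FPKM in control 1 to 4 to 268, 232, 123 and 2.81 in exercise 1 to 4. Its log2 difference was 4.21 (limma adjusted p = 0.0409). Exercise 4, with 1 read, was below 3 of the control libraries, so the groups overlapped, and the exact permutation p was 0.114. As in Cep152, exercise 1 and 2 were highest. Among the wider list, Mzt2 was thus the 1 gene called higher, and it was called in 9 of 21 alternatives. The call was lost with no filter, with a constant FPKM sum, with scaling to read totals, with exercise 1 and 2 averaged (with or without control 4 and exercise 3), and without any 1 library other than exercise 4 (limma adjusted p = 0.0695 to 0.105 there). The log2 difference of Mzt2 in the fits that lost the call was 3.11 to 4.49.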

How the data were processed

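The authors deposited FPKM values per gene and library. Per the labels and the study's methods, alignment by the authors used Bowtie 0.12.9 with the build mm10, Cufflinks 2.1.1 gave the FPKM, and HTSeq did the counting. Multiplied by gene length, 100% of the deposited FPKM values were whole multiples of 1 step per library (tolerance 0.001 reads), and the library size in them equalled a median-of-ratios size, so they were already scaled between libraries. Values of this form are scaled whole counts, whereas the methods name Cufflinks for the FPKM. Which tool wrote the deposited values was not tested. Values of rows with one symbol were added together, which removed 101 rows. The test was that of limma 3.58.1 (R 4.3.3) with a variance trend, on log2(FPKM + 1) of the 4328 genes whose mean reached 1 FPKM, and p-values were adjusted over all of them by Benjamini-Hochberg. A fold change on this scale understates the change of low genes. Single genes under that minimum were compared by exact two-sided permutation over library labels. Motif, window and detection counts used Python 3.11.15, pandas 2.3.3, numpy 2.4.6 and scipy 1.17.1, with GENCODE M21 transcripts and RefSeq promoters. The fit was tested on simulated data with known changes.

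Libraries held 1011737 to 3013354 reads, and where no read was seen, up to 3 were held possible. The members, the wider list, the markers and the tests were chosen with earlier results of these data known. Named were members with a mean of at least 1 FPKM or at least 20 reads in a library, genes called in the wider list, the 5 genes nearest to Cep152, its neighbours within 250 kb, and overlapping genes with reads; other members were named to account for the rest, except 1 that is not reported here. Alternatives covered the pseudocount, filters, scaling, variance model, weights, shared symbols, voom on recovered reads, a replicate block and left-out libraries. The other experiments of the study were not analysed here.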

Additional observations from a re-analysis of the deposited data

Results flagged for a closer look

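A library lay far from the other 3 of its group for 2 genes, by the ratio of its gap to the range of the group. Cep152 had a log2(FPKM + 1) of 0.0794 in control 2 and 0 in the other control libraries. Pcm1 had 0.116 in exercise 2 and 0 in the other exercise libraries. Each value is a single read. With the other 3 libraries at 0, any read meets the criterion by construction, so the usual chance rate of about 1 in 20 groups does not apply to these 2 of the 15 groups examined.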

How the results depend on the processing

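Cep152 was higher in exercise libraries under every alternative run, and its difference of 9.32 moved to 12.50 with a pseudocount of 0.1 and 14.44 with voom, and was 8.89 to 10.28 with a library left out. The 1541 calls over all genes became 840 without a filter, 941 under quantile normalization, 2978 with array weights, 596 with exercise 1 and 2 averaged, and 0 (469 at an unadjusted p under 0.05) when control 4 and exercise 3 were also left out of that limma fit, which has fewer libraries; with 1 library left out they ranged from 527 (without exercise 3) to 1899 (without control 1). Of members besides Cep152, the 1 call became 2 with a pseudocount of 0.1, with a constant FPKM sum and with scaling to read totals (Pcm1, limma adjusted p = 0.0493, 0.0489 and 0.0483), 3 with array weights, 0 under quantile normalization and 0 in the fit without control 4 and exercise 3 (1 at an unadjusted p under 0.05), and 0 to 3 with a library left out. Of the wider list, the 4 calls became 1 without a filter, 2 with a minimum of 1 FPKM in 4 libraries, 2 under quantile normalization, 7 with array weights, 1 with exercise 1 and 2 averaged, 0 when control 4 and exercise 3 were also left out, and 1 to 5 with a library left out. Cep85 turned from -0.82 to 0.23 under quantile normalization, and the cause was not tested. Cep63 was higher under every alternative run for it (1.18 to 1.76 with a library left out), and its exact permutation p was 0.0571 without any 1 control library. The exact permutation p of Pcnt was 0.0857 without any 1 exercise library, and that of Tubgcp6 was 0.0286 without control 1, its control library at 0. Cep63, Pcnt and Tubgcp6 were each taken up through the reads of 1 group, so these p values are no support. Replicate numbers are in the labels of both groups, but the deviations of same-numbered libraries correlated at only -0.017 to 0.039, so the numbers did not pair them. With the replicate block, 1059 genes, 1 member and 3 genes of the wider list were called. Depth limits all genes at a few reads, most of all in exercise 4.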
